A study of Homo sapiens with 12 samples.

Results

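The replication-dependent histone genes were followed in RNA-seq counts from HS578T cells, as the labels name them, a line derived from a triple-negative breast tumour. They were taken by name: protein-coding genes whose symbol begins with H2AC, H2BC, H3C or H4C and a number, together with H1-1 to H1-5 (older names HIST1 to HIST4). A gene also needed at least 10 counts in 3 or more libraries, which 58 of the 69 genes with such names had, of 60660 gene identifiers in all. The 58 genes comprised 5 H1, 13 H2A, 17 H2B, 10 H3 and 13 H4 genes. Of these, 49 lie in the HIST1 cluster on chromosome 6, 6 in the HIST2 cluster and 2 in the HIST3 cluster on chromosome 1, and H4C16 lies on chromosome 12. Just inside the minimum was H3C7, with 86 counts over the 12 libraries and 20 in the highest library. Just outside it was H4C15, with 18 counts in all and at most 8 in a library. Of the 100-base stretches of its GENCODE transcripts, 97.1% also occur in another gene. The share was 100% for H2AC18, H2BC12L, H3C4, H3C14 and H3C15, 97.6% for H2AC7 and 96.8% for H2AC19. It was 0% for H2AC1, H2BC1 and H4C7. Reads from shared stretches may not have been assigned to a single gene, so few counts need not mean low expression there. The histone sums below may therefore miss RNA from such genes.

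These genes supply the core histones H2A, H2B, H3 and H4 and the linker histone H1 that package newly made DNA, and they are transcribed mainly during S phase. Their messages are the classic example of an mRNA that ends in a conserved stem-loop and not in a poly(A) tail. The stem-loop is bound by SLBP, the U7 ribonucleoprotein directs the cut behind it, and the messages are degraded when DNA synthesis stops. Histone variants made outside S phase, such as H3.3, come from other genes with ordinary poly(A) tails, and some of the replication-dependent genes are known to give polyadenylated transcripts as well.

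The cells carried a heterozygous loss of the short arm of chromosome 17 (17p) or an intact 17p, and were treated for 48 h with doxorubicin, an anthracycline that poisons DNA topoisomerase, or with its solvent DMSO. Doses differed between the genotypes. The 4 groups of 3 libraries were deleted cells in 1 µM doxorubicin, deleted cells in DMSO, intact cells in 170 nM doxorubicin and intact cells in DMSO, and the sample titles call the deleted cells 17PKO and the intact ones Cas9. Wherever treated deleted cells are set against treated intact cells, genotype and dose change together and cannot be told apart. Whether replicate libraries go back to independent cultures is not in the labels, and the p-values below therefore rest on a spread that may be purely technical.

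Library totals ran from 66150539 to 99142099 counts, so the floor of 3 counts corresponds to 0.0303 to 0.0454 per 1000000 counts of the library total. Levels are given below as CPM, counts per 1000000 of the TMM-scaled library size of the genes tested. Low counts came mostly in even numbers, with 36093 values of 2 and 17565 values of 1 in the table, so the mates of a read pair may have been counted separately, in which case a count of 2 would be 1 read pair. A check of transcripts tied to single chromosomes put 12 of 12 libraries at odds with the recorded HS578T karyotype, and the cells are therefore called by their labels. The 7 mesenchymal markers fixed for the line summed to 4768 to 7989 CPM and none was at 0. The 6 epithelial markers summed to 383 to 618 CPM with at most 1 at 0, and the 5 blood markers to at most 1.18 CPM. The mitochondrial share stood at 6.90% in deleted DMSO replicate 2 and 5.54% in intact doxorubicin replicate 1, and at 2.61% to 3.57% in the other libraries.

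The stem-loop itself could be read from the GENCODE 29 transcripts of 26 of the 58 genes, 22 to 56 bases behind the stop codon. It came in 6 forms, shown because the fold changes below can be set beside them. The capitals mark the 16 bases of the stem-loop, written as DNA, with up to 5 bases on each side.

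H2AC6: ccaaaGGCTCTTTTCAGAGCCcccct
H2BC5: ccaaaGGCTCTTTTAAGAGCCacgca
H3C6: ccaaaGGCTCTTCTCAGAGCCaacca
H2AC11: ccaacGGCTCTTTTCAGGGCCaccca
H4C5: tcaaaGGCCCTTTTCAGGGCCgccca
H4C9: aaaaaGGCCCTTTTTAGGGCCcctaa

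The form of H2AC6 was found in 13 genes of the H2A, H2B and H3 families, that of H2BC5 in 4 genes (H2BC4, H2BC5, H2BC7 and H3C8), that of H4C5 in 5 H4 genes and that of H4C9 in 2 H4 genes. H3C6 and H2AC11 each had a form of their own. For 29 genes the GENCODE 29 models hold no bases behind the stop codon, so no stem-loop could be read. These are called coding-only below, although H3C12 among them has 2 transcripts and 775 bases of exon. In 22 genes the model runs on for at least 200 bases after the stop codon, and these extended models held 51.3% of the CPM of the 58 genes. This class does not depend on the stem-loop: H2BC11 is in it with none read, and H2BC5 runs 39 bases past its own. The labels name neither poly(A) selection nor removal of ribosomal RNA, so how the libraries sample RNAs without a poly(A) tail is not given in the sources used here.

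Histone RNA was lower in deleted cells after 1 µM doxorubicin than in deleted cells in DMSO, and for the sum over all genes these 2 groups did not overlap. Summed over the 58 genes, the level was 67.5, 45.0 and 53.8 CPM in deleted doxorubicin libraries against 110.9, 91.7 and 107 CPM in deleted DMSO libraries. The sums were 116.6, 135.6 and 123.5 CPM in intact doxorubicin libraries against 127.3, 119.6 and 111.6 CPM in intact DMSO libraries, and there the ranges overlapped. The means were 55.4 ± 11.3, 103.2 ± 10.2, 125 ± 9.60 and 119 ± 7.84 CPM in the same order (SD, n = 3 each), a ratio of 0.537 for doxorubicin over DMSO in deleted cells and 1.05 in intact cells. By family, the ratio in deleted cells was 0.303 for H3, 0.528 for H2B, 0.548 for H2A, 0.654 for H4 and 0.693 for H1, and only the H4 sums of the deleted groups overlapped. No p is given for these sums, since the genes were chosen with earlier results known. In bulk libraries, fewer cells making histone RNA and less histone RNA per cell cannot be told apart.

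**Figure D1:**
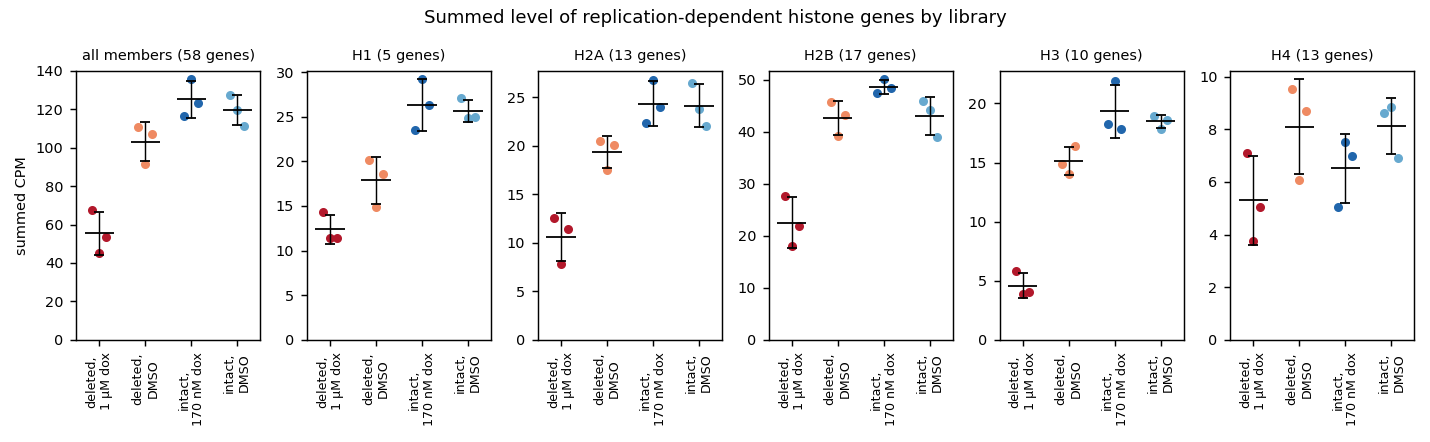
Summed CPM of all 58 histone genes and of each family (y axis, linear, from 0) in each library, by group; points are libraries, the horizontal line is the mean and the error bar 1 SD of 3 libraries. The 3 deleted doxorubicin libraries lie between 45.0 and 67.5 CPM over all genes, below each of the other 9 libraries, and the H3 panel shows the widest gap in relative terms.

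All 58 genes entered the edgeR quasi-likelihood fit of the 4 groups, in which 21803 genes were tested and p-values were adjusted over all of them by Benjamini-Hochberg. For doxorubicin in deleted cells, 29 of the 58 histone genes fell and none rose at an adjusted p under 0.05, where 13.1% of all genes tested fell and 17.5% rose. At an unadjusted p under 0.05 the counts were 36 lower and 0 higher, where 40.2% of all genes tested passed in either direction, and DESeq2 and limma-voom also called none higher. The median log2 fold change was -0.97 over the 58 genes and -0.02 over all genes tested, and 55 of the 58 values were negative. H2AC4, H2AC17, H3C13 and H4C12 had under 10 counts in each deleted doxorubicin library and met the count minimum through other groups. This favours low values there. All of them enter this median, and H2AC17 and H3C13 are among the 29. Of the 29 genes that passed, 19 stayed past the threshold in each alternative in which they were tested. The 58 genes include 30 with under 1000 counts over the 12 libraries, of which 9 passed, and 28 with at least 1000 counts, of which 20 passed. In 29 genes all 3 doxorubicin libraries lay below all 3 DMSO libraries, against 20.7% of all genes tested.

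**Figure D2:**
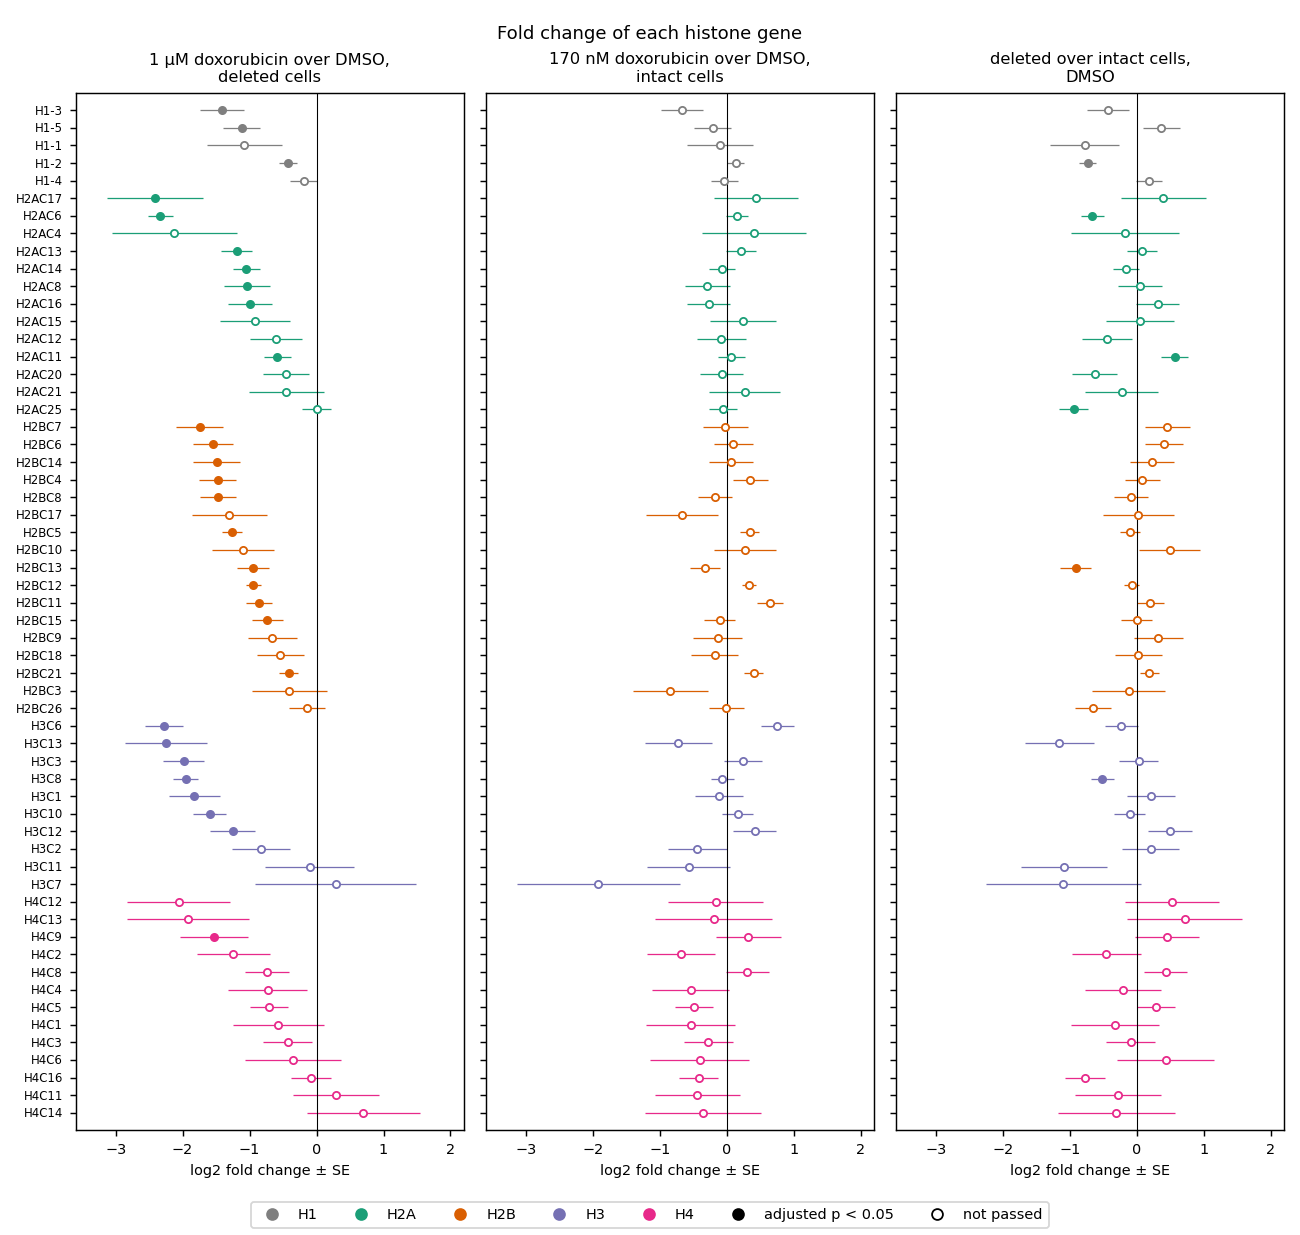
Log2 fold change with its standard error (x axis) of each of the 58 histone genes, ordered within family, for doxorubicin over DMSO in deleted cells (left), doxorubicin over DMSO in intact cells (middle) and deleted over intact cells in DMSO (right). Filled points passed an adjusted p under 0.05 by edgeR: 29 in the left panel, none in the middle and 6 in the right.

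The H3 genes, which encode the replication-dependent H3.1 and H3.2, had the lowest median of the families, at -1.71 on the log2 scale. In deleted cells 7 of 10 fell, against 13.1% of all genes tested. The most abundant, H3C8 (chr6:26270918-26271413, GRCh38.p14), was at 1.91, 1.67 and 1.08 CPM in deleted doxorubicin libraries against 6.23, 5.28 and 6.54 CPM in deleted DMSO libraries. It was at 7.52, 8.87 and 8.30 CPM in intact doxorubicin libraries and at 9.13, 8.0 and 8.78 CPM in intact DMSO libraries. Its 3 lowest libraries were thus the deleted ones in doxorubicin, and the intact groups overlapped. The edgeR log2 fold change for doxorubicin in deleted cells was -1.96, SE 0.18 (adjusted p = 2.46e-06), and in intact cells it was -0.07 and did not pass.

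H3C6 (chr6:26224178-26227473) was at 0.435, 0.209 and 0.328 CPM in deleted doxorubicin libraries against 1.11, 1.79 and 1.78 CPM in deleted DMSO libraries. Intact libraries held 3.57, 2.57 and 3.21 CPM in doxorubicin against 1.75, 1.71 and 2.07 CPM in DMSO. Both pairs of groups were apart, in opposite directions. In deleted cells the edgeR log2 fold change was -2.28, SE 0.28 (adjusted p = 2.93e-05). In intact cells it was 0.76, SE 0.24, and did not pass (adjusted p = 0.259 by edgeR).

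H3C3 (chr6:26045384-26045869) was at 0.691, 0.324 and 0.795 CPM in deleted doxorubicin libraries against 2.04, 3.0 and 2.11 CPM in deleted DMSO libraries. It was at 2.93, 3.54 and 1.89 CPM in intact doxorubicin libraries against 2.35, 2.31 and 2.38 CPM in intact DMSO libraries. The deleted groups did not overlap and the intact groups did. The log2 fold change of H3C3 in deleted cells was -1.98, SE 0.31 (adjusted p = 2.50e-04 by edgeR). H3C13 on chromosome 1, an H3.2 gene with few counts, was at 0.102, 0.0209 and 0.0847 CPM in deleted doxorubicin libraries against 0.355, 0.122 and 0.505 CPM in deleted DMSO libraries. In intact cells H3C13 was at 0.246, 0.646 and 0.436 CPM in doxorubicin and at 0.903, 0.602 and 0.702 CPM in DMSO. Its groups were apart in deleted cells, but by edgeR the change of -2.25 (SE 0.61, adjusted p = 0.0129) did not pass without replicate 2 of the deleted doxorubicin group, at -1.80, or without replicate 3 of the deleted DMSO group, at -1.78. Of the 100-base stretches of its GENCODE 29 transcripts, 51.3% also occur in another gene, so its counts are uncertain. H3C13 held 8, 2 and 8 counts in deleted doxorubicin libraries. It thus met the count minimum through the other groups, which favours a low value in treated deleted cells. The other H3 genes that fell were H3C1 (-1.82), H3C10 (-1.60) and H3C12 (-1.25, not past the threshold without replicate 3 of the deleted DMSO group). H3C2, H3C7 and H3C11 did not pass, at -0.83, 0.29 and -0.10.

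The H4 genes all encode the same core histone, and 1 of 13 fell in deleted cells. This is not above the share of all genes tested that fell, 13.1%. The gene called was H4C9, at 0.205, 0.0837 and 0.117 CPM in deleted doxorubicin libraries against 0.503, 0.204 and 0.455 CPM in deleted DMSO libraries. The highest treated library of H4C9 lay above the lowest DMSO library. By edgeR its log2 fold change was -1.53, SE 0.51 (adjusted p = 0.0356), and it did not pass without replicate 2 or 3 of the deleted doxorubicin group or replicate 1 or 3 of the deleted DMSO group, nor with the replicate block. The H4 genes were also the least covered family, with a median of 304 counts per gene over the 12 libraries and 2 genes, H4C5 and H4C16, at 1000 or more. H4C5 was at 2.12, 0.921 and 1.46 CPM in deleted doxorubicin libraries against 2.83, 2.46 and 2.03 CPM in deleted DMSO libraries, with 1 library of each group overlapping. Its log2 fold change of -0.70, SE 0.28, did not pass (adjusted p = 0.0777 by edgeR). H4C16, the gene on chromosome 12, was at -0.08, SE 0.30, and the median over the 13 H4 genes was -0.70.

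Among the H2A genes 7 of 13 fell in deleted cells, against 13.1% of all genes tested, with a family median of -0.99. H2AC6 (chr6:26124172-26124690) had the lowest adjusted p of the 58 genes. It was at 1.06, 0.565 and 0.879 CPM in deleted doxorubicin libraries against 4.32, 4.02 and 4.23 CPM in deleted DMSO libraries. In intact cells it was at 7.75, 6.89 and 7.63 CPM in doxorubicin against 7.14, 6.84 and 6.06 CPM in DMSO. The deleted groups were far apart, both lay below the intact libraries, and the intact groups overlapped. Its log2 fold change in deleted cells was -2.33, SE 0.19 (adjusted p = 5.94e-07 by edgeR).

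H2AC17 had the most negative value, -2.42, SE 0.72 (adjusted p = 0.0202 by edgeR), on 143 counts in all. It held 1, 4 and 5 counts in deleted doxorubicin libraries against 7, 24 and 14 counts in deleted DMSO libraries. Intact cells held 27, 17 and 7 counts of H2AC17 in doxorubicin and 9, 11 and 17 in DMSO. The deleted groups did not overlap. It did not pass without replicate 1 or 2 of the deleted doxorubicin group or replicate 2 of the deleted DMSO group, and over all single omissions it ranged from -2.78 to -1.92, and 84.0% of its 100-base stretches occur in another gene. H2AC4, with 125 counts in all, held 0, 0 and 8 counts in deleted doxorubicin libraries against 13, 6 and 10 in deleted DMSO libraries, and its value of -2.12 did not pass. In intact cells H2AC4 held 8, 18 and 26 counts in doxorubicin and 8, 12 and 16 in DMSO. No deleted doxorubicin library of H2AC17 or H2AC4 reached 10 counts. Both genes met the count minimum through the other groups, which favours a low value in treated deleted cells.

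H2AC14 was at 0.845, 0.774 and 1.11 CPM in deleted doxorubicin libraries against 2.04, 2.09 and 1.53 CPM in deleted DMSO libraries. In intact cells H2AC14 was at 2.02, 2.21 and 1.83 CPM in doxorubicin and at 2.41, 2.04 and 1.91 CPM in DMSO. The 3 treated deleted libraries were the lowest of the 12, and the log2 fold change was -1.05, SE 0.20 (adjusted p = 0.00135 by edgeR). Of its 100-base stretches 80.9% are shared with another gene. H2AC11 was at 3.17, 1.97 and 2.18 CPM in deleted doxorubicin libraries against 3.77, 3.35 and 3.85 CPM in deleted DMSO libraries. In intact cells H2AC11 was at 2.88, 2.25 and 2.67 CPM in doxorubicin and at 3.0, 2.32 and 2.15 CPM in DMSO. It fell by 0.59 on the log2 scale in deleted cells (SE 0.20, adjusted p = 0.0377 by edgeR), to about the level of the intact libraries, which its treated libraries overlapped. The call was lost without replicate 2 or 3 of the deleted doxorubicin group, replicate 1 or 3 of the deleted DMSO group or replicate 2 of the intact DMSO group, with values of -0.46 to -0.59. The other H2A genes that fell were H2AC13 (-1.19), H2AC8 (-1.04) and H2AC16 (-0.99), and 57.7% of the 100-base stretches of H2AC13 are shared. The calls of H2AC8 and H2AC16 were each lost without any 1 of 4 deleted-cell libraries, replicates 2 and 3 in doxorubicin and replicate 3 in DMSO for both, with replicate 1 in DMSO for H2AC8 and replicate 2 in DMSO for H2AC16.

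H2AC25, the HIST3 gene formerly called HIST3H2A (chr1:228457364-228457873), was at 2.71, 2.17 and 2.76 CPM in deleted doxorubicin libraries against 2.74, 2.23 and 2.68 CPM in deleted DMSO libraries. In intact cells it was at 3.29, 6.52 and 4.31 CPM in doxorubicin and at 5.41, 4.47 and 4.85 CPM in DMSO. The deleted groups lay on top of each other and below all intact libraries. Its log2 fold change for doxorubicin was -0.00, SE 0.22, in deleted cells and -0.06, SE 0.21, in intact cells, and neither passed. Of the 10 most abundant histone genes, H2AC25 and H2BC18 were the ones that did not pass in deleted cells.

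Among the H2B genes 11 of 17 fell in deleted cells, against 13.1% of all genes tested, with a family median of -0.95. H2BC12 (chr6:27138293-27146858), the most abundant, was at 5.05, 4.39 and 4.62 CPM in deleted doxorubicin libraries against 9.21, 8.48 and 9.45 CPM in deleted DMSO libraries. In intact cells it was at 12.9, 12.3 and 10.9 CPM in doxorubicin against 9.96, 9.53 and 9.25 CPM in DMSO. Both pairs of groups were apart, lower after doxorubicin in deleted cells and higher after it in intact cells. The log2 fold change was -0.95, SE 0.11 (adjusted p = 2.01e-05 by edgeR), in deleted cells, and 0.33, SE 0.11, in intact cells, where it did not pass (adjusted p = 0.273 by edgeR). In H2BC12, 28.4% of the 100-base stretches are shared with another gene.

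H2BC5 (chr6:26158121-26171349) was at 3.22, 2.42 and 2.81 CPM in deleted doxorubicin libraries against 7.46, 6.34 and 6.48 CPM in deleted DMSO libraries. In intact cells H2BC5 was at 7.79, 10.6 and 9.13 CPM in doxorubicin and at 7.44, 7.83 and 6.52 CPM in DMSO. The treated deleted libraries were the 3 lowest, and the change was -1.26, SE 0.15 (adjusted p = 2.79e-05 by edgeR). H2BC8 was at 1.20, 0.649 and 0.710 CPM in deleted doxorubicin libraries against 2.71, 1.68 and 2.68 CPM in deleted DMSO libraries. In intact cells H2BC8 was at 2.17, 2.05 and 2.49 CPM in doxorubicin and at 2.95, 2.65 and 1.97 CPM in DMSO. It fell in deleted cells by 1.47 on the log2 scale (SE 0.27, adjusted p = 8.33e-04 by edgeR).

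H2BC21 of the HIST2 cluster (chr1:149884459-149886682) was at 4.18, 3.48 and 3.35 CPM in deleted doxorubicin libraries against 4.44, 4.64 and 5.61 CPM in deleted DMSO libraries. In intact cells H2BC21 was at 5.96, 5.95 and 5.22 CPM in doxorubicin against 4.70, 4.22 and 4.07 CPM in DMSO. The groups were apart in both genotypes, in opposite directions, by little. The change in deleted cells was -0.42, SE 0.14 (adjusted p = 0.0395 by edgeR), near the threshold. It was lost, with values of -0.31 to -0.42, without replicate 2 or 3 of the deleted doxorubicin group, replicate 3 of the deleted DMSO group, replicate 1 of the intact doxorubicin group or any 1 intact DMSO library. Nor did H2BC21 pass with the replicate number as a block.

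H2BC15 was at 2.2, 1.49 and 2.13 CPM in deleted doxorubicin libraries against 3.18, 3.0 and 3.49 CPM in deleted DMSO libraries. In intact cells H2BC15 was at 2.29, 2.91 and 3.79 CPM in doxorubicin and at 3.96, 3.44 and 2.33 CPM in DMSO. Its deleted groups were apart, at -0.74 on the log2 scale (SE 0.23, adjusted p = 0.0287 by edgeR), and the call was lost without replicate 2 or 3 in doxorubicin or replicate 1 or 3 in DMSO, the value over all single omissions running from -0.84 to -0.58. H2BC18 of the HIST2 cluster was at 3.03, 0.858 and 2.42 CPM in deleted doxorubicin libraries against 3.94, 2.54 and 2.66 CPM in deleted DMSO libraries. Intact libraries held 2.55, 2.06 and 3.30 CPM of H2BC18 in doxorubicin and 3.14, 3.28 and 2.59 CPM in DMSO. The groups overlapped in both genotypes, and the value of -0.54, SE 0.35, did not pass. The other H2B genes that fell in deleted cells were H2BC4, H2BC6, H2BC7, H2BC11, H2BC13 and H2BC14, from -0.86 to -1.74. H2BC26, the HIST3 partner of H2AC25, was at 1.15, 0.544 and 1.01 CPM in deleted doxorubicin libraries against 1.04, 0.869 and 1.07 CPM in deleted DMSO libraries. It was at 1.23, 1.49 and 1.95 CPM in intact doxorubicin libraries and at 1.48, 1.68 and 1.56 CPM in intact DMSO libraries. These groups overlapped, and at -0.15, SE 0.27, it did not pass in deleted cells.

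**Figure D3:**
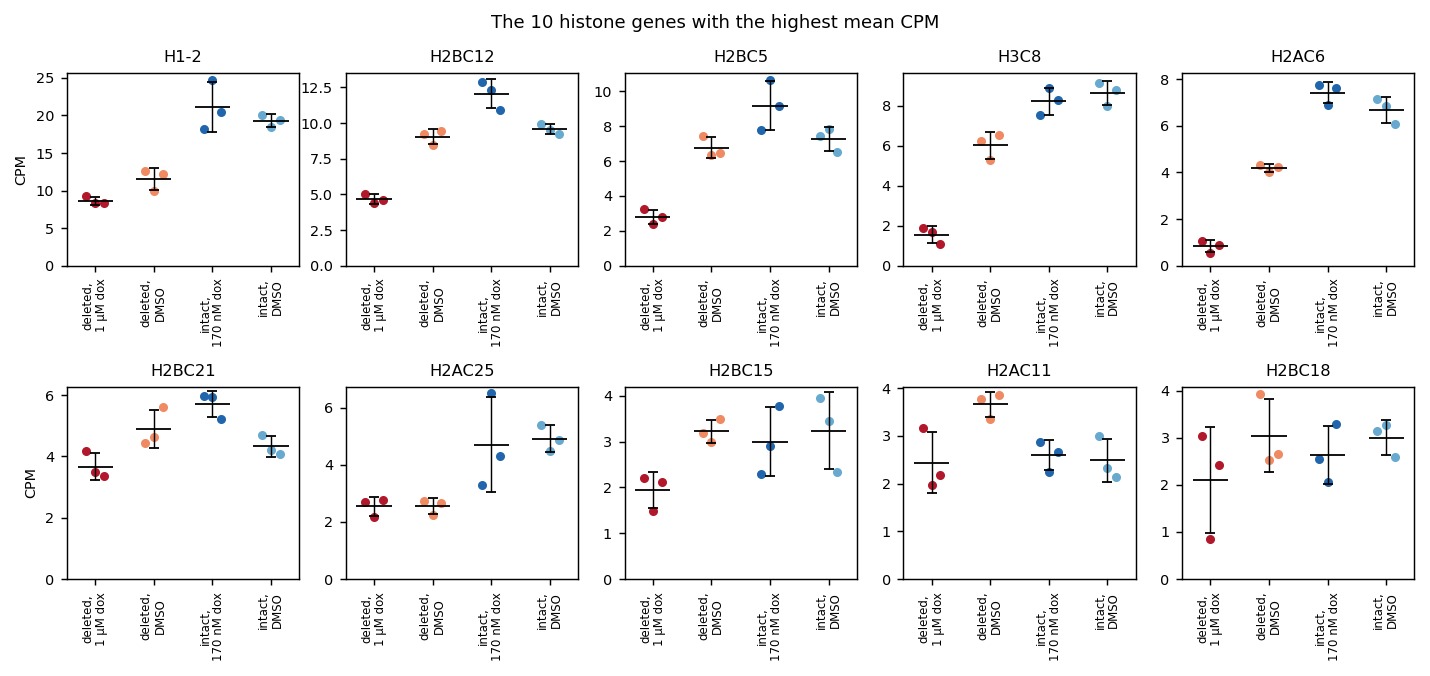
CPM (y axis, linear, from 0) of the 10 histone genes with the highest mean CPM, by library and group; the line is the mean and the error bar 1 SD of 3 libraries. H2AC6 and H3C8 show the widest gaps between the deleted groups in relative terms, while the 2 deleted groups of H2AC25 lie together at 2.17 to 2.76 CPM.

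The linker histone genes gave 20.4% of the CPM of the 58 genes, most of it from H1-2. H1-2 (chr6:26055740-26056470) was at 9.25, 8.34 and 8.31 CPM in deleted doxorubicin libraries against 12.6, 9.92 and 12.2 CPM in deleted DMSO libraries. Intact libraries held 18.2, 24.8 and 20.4 CPM in doxorubicin and 20.1, 18.5 and 19.4 CPM in DMSO. Each deleted library lay below each intact one, and the deleted groups were apart by little. The change with doxorubicin in deleted cells was -0.42, SE 0.13 (adjusted p = 0.0241 by edgeR). It did not pass without replicate 2 or 3 of the deleted doxorubicin group or replicate 1 or 3 of the deleted DMSO group, with values of -0.36 to -0.40, nor with the replicate number as a block. H1-3 and H1-5 fell by 1.41 and 1.12 on the log2 scale, while H1-1 at -1.08 and H1-4 at -0.19 did not pass. Per kilobase of exon, H1-2 and H2BC12 had the highest mean levels of the 58 genes over the 12 libraries. They were at 23.6 and 23.2 CPM per kb, followed by H2BC5 at 7.47. The exon lengths came from GENCODE models, which hold the coding sequence only for H1-2 and H2BC12, at 0.642 and 0.381 kb. The model of H2BC15 runs to 5.477 kb. The release behind the counts is not given, so levels per kilobase are uncertain. Without division by length, H1-2, H2BC12 and H2BC5 also had the highest means, at 15.2, 8.84 and 6.51 CPM.

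In intact cells 170 nM doxorubicin was not followed by a called change in any of the 58 genes. At an adjusted p under 0.05 by edgeR none was higher or lower, and DESeq2, which gave 17 of them no adjusted p, and limma-voom also called none. Few genes moved in this comparison at all, 13 of 21803 or 0.0596%, with 0.0275% higher and 0.0321% lower. At an unadjusted p under 0.05 there were 5 histone genes, against 11.5% of all genes tested, and all 5 were higher: H2BC5, H2BC11, H2BC12, H2BC21 and H3C6. Their log2 fold changes were 0.34 for H2BC5, 0.65 for H2BC11, 0.33 for H2BC12, 0.40 for H2BC21 and 0.76 for H3C6. The libraries of the groups did not overlap in 4 genes that were higher and 2 that were lower, against 10.7% and 8.67% of all genes tested. The median was -0.08 over the 58 genes and 0.01 over all genes tested. The dose was lower than in deleted cells, so the effects in the genotypes are not at a matched dose.

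The difference between the doxorubicin effects was tested as an interaction. It was below 0 and past the threshold in 18 of the 58 genes by edgeR and above 0 in none, where 6.74% of all genes tested were below and 10.3% above. At an unadjusted p under 0.05 the counts were 24 and 0, against 30.2% of all genes in either direction, and DESeq2 and limma-voom called none above 0. The most negative were H3C6 at -3.03, SE 0.37, H2AC6 at -2.49, SE 0.25, H3C3 at -2.23, SE 0.42, and H3C8 at -1.89, SE 0.25. The smallest called differences were those of H2BC21 at -0.82, H2AC14 at -0.98, H2BC12 at -1.28 and H2BC8 at -1.30. Of the 18 calls, 12 held in all alternatives in which they were tested. The other calls were lost when 1 library was left out, for 9 of the 12 libraries in H2BC14, 8 in H3C1, 7 in H2BC8, 6 each in H2AC14 and H2BC7 and 4 in H3C12. With the replicate block H2AC14, H2BC14, H3C1 and H3C12 did not pass. Leaving out replicate 3 of the intact DMSO group gave 12 genes. The 18 genes hold no H1 and no H4 gene.

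Between treated cells, the deleted libraries in 1 µM were lower than the intact ones in 170 nM in 31 of the 58 genes by edgeR and higher in none, with 21.9% of all genes tested lower and 25.9% higher. At an unadjusted p under 0.05 the counts were 32 lower and 0 higher, against 53.9% of all genes in either direction, and DESeq2 and limma-voom again called none higher. The largest called values were -3.27 for H3C6, -3.16 for H2AC6, -2.71 for H2AC4 and -2.68 for H3C13. H2AC4, H3C13 and H2AC17, which was called at -2.46, met the count minimum only through groups other than deleted doxorubicin. This favours low values there. H2AC4 rests on few counts: it was at -7.04 without replicate 3 of the deleted doxorubicin group, the treated deleted library in which it had counts, and did not pass without replicate 1 or 2 of that group or replicate 2 or 3 of the intact doxorubicin group, at -2.17 to -2.67. The smallest called values were -0.63 for H2BC15, -0.64 for H2BC21, -0.80 for H2BC26 and -0.89 for H2AC25. H2BC15 and H2BC26 did not pass without replicate 2 of the deleted doxorubicin group, at -0.51 and -0.58, or replicate 3 of the intact doxorubicin group, at -0.43 and -0.60, and H2BC15 did not pass with the replicate block. H2AC25 and H2BC26 entered this list without a called change with doxorubicin in deleted cells. This comparison shares its treated deleted libraries with the doxorubicin comparison in deleted cells.

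In DMSO few histone genes were called different between the genotypes. By edgeR 5 of the 58 were lower and 1 higher in deleted cells, where 16.2% of all genes tested were lower and 18.8% higher. The share over all 58 genes was thus below the background in both directions. All 6 calls were among the 28 genes with at least 1000 counts, and 0 of the 30 with fewer counts passed. The part of depth in this share was not tested. Summed over the 58 genes, the DMSO groups were narrowly apart, with 110.9 CPM in the highest deleted and 111.6 CPM in the lowest intact library. The ratio of their means was 0.863, deleted over intact. At an unadjusted p under 0.05 there were 8 lower and 1 higher, against 43.9% of all genes in either direction. The lower genes were H2AC25 (-0.95, SE 0.22), H2BC13 (-0.92, SE 0.23), H1-2 (-0.74, SE 0.13), H2AC6 (-0.67, SE 0.17) and H3C8 (-0.52, SE 0.17), and the higher one was H2AC11 (0.56, SE 0.20). H2BC13 was at 1.24, 1.05 and 1.15 CPM in deleted DMSO libraries against 2.38, 1.95 and 2.17 CPM in intact DMSO libraries, with no overlap. In doxorubicin H2BC13 was at 0.717, 0.450 and 0.614 CPM in deleted cells against 1.37, 2.29 and 1.51 CPM in intact cells. For H2AC25, H2BC13, H1-2 and H2AC6 the call held without each single library. H3C8 did not pass without replicate 1 (-0.55) or 2 (-0.46) of the deleted DMSO group or replicate 1 (-0.48) or 3 (-0.51) of the intact DMSO group, nor with the replicate block. H2AC11 did not pass under RLE scaling or library totals, nor in 9 of the 12 fits without a library. The HIST3 genes H2AC25 and H2BC26 summed to 3.77, 3.09 and 3.75 CPM in deleted DMSO libraries against 6.88, 6.15 and 6.41 CPM in intact DMSO libraries.

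Many H2A and H2B genes stand head to head and share the stretch between their starts. By RefSeq starts on GRCh38.p14, 9 such pairs of the 58 genes lay 194 to 248 bases apart. With doxorubicin in deleted cells both partners fell in 5 pairs, 1 partner fell in 3 pairs, and neither fell in the HIST3 pair H2AC25 and H2BC26. Over the 9 pairs the log2 fold changes of the partners had a Pearson r of 0.744, given as a description, since the points share the libraries and the partners a promoter region. The median difference within a pair was 0.27 on the log2 scale. The pair furthest apart was H2AC17 at -2.42 and H2BC17 at -1.30, both with few counts, followed by H2AC6 at -2.33 and H2BC4 at -1.48. In treated cells between the genotypes H2BC11 fell, at -1.31, while its partner H2AC11, at -0.09, did not pass.

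**Figure D4:**
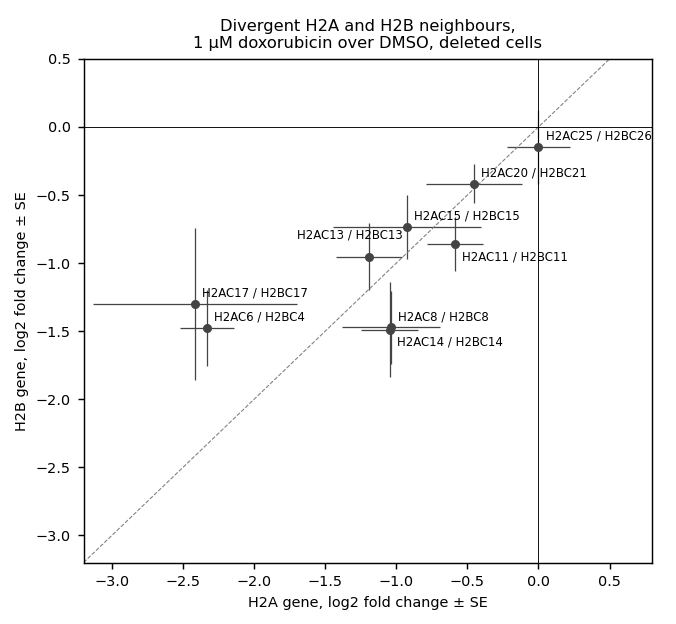
Log2 fold change for doxorubicin over DMSO in deleted cells of the H2A gene (x axis) and of its head-to-head H2B neighbour (y axis), with standard errors; the dashed line marks equal values. The 9 pairs run from H2AC25 and H2BC26 near 0 to H2AC17 and H2AC6, whose H2B partners were less negative.

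The stretches between the starts are shown for 2 pairs in which both partners fell, 1 by more and 1 by less, and for the HIST3 pair, in which neither did. Capitals mark 3 motifs searched on both strands: the octamer ATGCAAAT, CCAAT and TATAAA, with their reverse complements, and where TATAAA occurs on both strands the matches overlap. The bases between H2BC4 and H2AC6 are chr6:26123927-26124171, those between H2BC11 and H2AC11 are chr6:27132796-27133042 and those between H2AC25 and H2BC26 are chr1:228457874-228458102, all on the plus strand of GRCh38.p14 and from RefSeq.

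H2BC4 to H2AC6: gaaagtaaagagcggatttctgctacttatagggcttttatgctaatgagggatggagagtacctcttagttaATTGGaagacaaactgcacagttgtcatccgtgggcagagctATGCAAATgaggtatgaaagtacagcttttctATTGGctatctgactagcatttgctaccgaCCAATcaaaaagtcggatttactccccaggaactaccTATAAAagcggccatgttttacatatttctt
H2BC11 to H2AC11: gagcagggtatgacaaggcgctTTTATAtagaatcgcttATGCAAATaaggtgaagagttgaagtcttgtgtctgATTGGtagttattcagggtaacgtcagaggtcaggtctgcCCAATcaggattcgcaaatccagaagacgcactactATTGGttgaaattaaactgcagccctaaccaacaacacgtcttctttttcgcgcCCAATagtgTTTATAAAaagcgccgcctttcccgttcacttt
H2AC25 to H2BC26: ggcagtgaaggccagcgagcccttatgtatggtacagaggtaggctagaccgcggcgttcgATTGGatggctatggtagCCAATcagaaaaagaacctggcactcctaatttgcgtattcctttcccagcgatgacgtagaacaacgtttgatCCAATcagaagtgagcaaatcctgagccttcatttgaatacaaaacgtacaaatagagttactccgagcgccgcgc

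The first holds 1 octamer, 3 CCAAT and 1 TATAAA match, the second 1, 4 and 3, and the HIST3 stretch 0, 3 and 0. RefSeq promoters, here the 250 bases before the start, were at hand for 53 of the 58 genes. The octamer was in 13 of 17 H2B and 9 of 12 H2A promoters and in no H1, H3 or H4 promoter, against 1.63% of 35116 promoters. CCAAT was in 45 of the 53 histone promoters, against 32% of all, and in 3 of 11 H4 promoters, while every H1, H2A, H2B and H3 promoter at hand held it. TATAAA was in 35 of the 53, against 10.7% of all promoters. The histone promoters held a median of 42% G and C against 58% over all promoters, which favours matches rich in A and T. Head-to-head partners share most of their 250 bases, so a match between their starts can count for both. A match is a run of letters and not a shown binding site.

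Of the 45 genes with CCAAT in the promoter 28 fell with doxorubicin in deleted cells, and of the 8 without it, all H4 genes, none fell. Their medians were -1.08 and -0.72 on the log2 scale. The genes without CCAAT were also less covered, with 6 of 8 under 1000 counts. Among genes under 1000 counts, 8 of 19 with CCAAT and 0 of 6 without it fell. Of all genes tested 13.1% fell, so 0 of 6 or 0 of 8 is near that share, and the counts below are to be read against it. Since all genes without CCAAT were H4 genes, promoter and family cannot be told apart in this split. With and without the octamer, 14 of 22 and 14 of 31 genes fell, with medians of -1.04 and -0.95. By stem-loop form, 9 of 13 genes with the H2AC6 form, 4 of 4 with the H2BC5 form, 0 of 5 with the H4C5 form and 1 of 2 with the H4C9 form fell. By gene model, 14 of 22 extended models and 12 of 29 coding-only models fell, with medians of -0.80 and -1.05. None of these splits was tested, and those by CCAAT, octamer and stem-loop form overlap in part with the families.

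Genes that act around the histone supply were listed separately, with earlier results of these data known. S phase markers, the genes of DNA replication and of entry into S phase, had a median of 0.46 with doxorubicin in deleted cells, with 11 of 20 higher and 2 lower by edgeR, where 17.5% of all genes tested were higher and 13.1% lower. TYMS, which makes thymidylate, was at 480, 495 and 463 CPM in deleted doxorubicin libraries against 219, 220 and 220 CPM in deleted DMSO libraries, a log2 fold change of 1.13, SE 0.08 (adjusted p = 1.49e-07 by edgeR). PCNA, the polymerase clamp, rose by 0.93 on the log2 scale. CCNA2, the cyclin of S phase and G2, was at 67.9, 62.3 and 65.1 CPM in deleted doxorubicin libraries against 139, 182 and 145 CPM in deleted DMSO libraries, and fell by 1.25. CDKN1A, the p53-inducible inhibitor of cyclin-dependent kinases, rose by 4.08, to 1297, 1115 and 1282 CPM in deleted doxorubicin libraries against 82.8, 50.7 and 84.5 CPM in deleted DMSO libraries.

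Of 27 genes for histone transcription and 3′ processing, none rose and 4 fell, namely SNRPE (-0.41), YY1 (-0.39), NCBP1 (-0.28) and SNRPD3 (-0.28), with a list median of -0.05. Among all genes tested 17.5% rose and 13.1% fell, and the counts in this list and in the decay, chaperone and variant lists that follow are to be read against these shares. SLBP, which binds the stem-loop, was at 96.2, 93 and 89.9 CPM in deleted doxorubicin libraries against 98.1, 125 and 95.6 CPM in deleted DMSO libraries. At -0.19, SE 0.11, it did not pass (adjusted p = 0.209 by edgeR), and neither did NPAT, the coactivator of histone genes, at 0.21, SE 0.17. Of 11 histone mRNA decay genes UPF1 rose (0.48) and ERI1, an exonuclease that trims histone mRNA, fell (-0.37). Among 21 histone chaperones and importers 4 rose and 4 fell, with CHAF1B of the replication-coupled assembly factor at 0.53 and the centromere chaperone HJURP at -0.51. Of 12 replacement and variant histones MACROH2A2 (1.05) and MACROH2A1 (0.23) rose and the centromeric CENPA (-1.09) fell. H3-3B, which encodes H3.3, was at 580, 584 and 552 CPM in deleted doxorubicin libraries against 568, 568 and 590 CPM in deleted DMSO libraries and did not pass, at -0.01, SE 0.07.

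**Figure D5:**
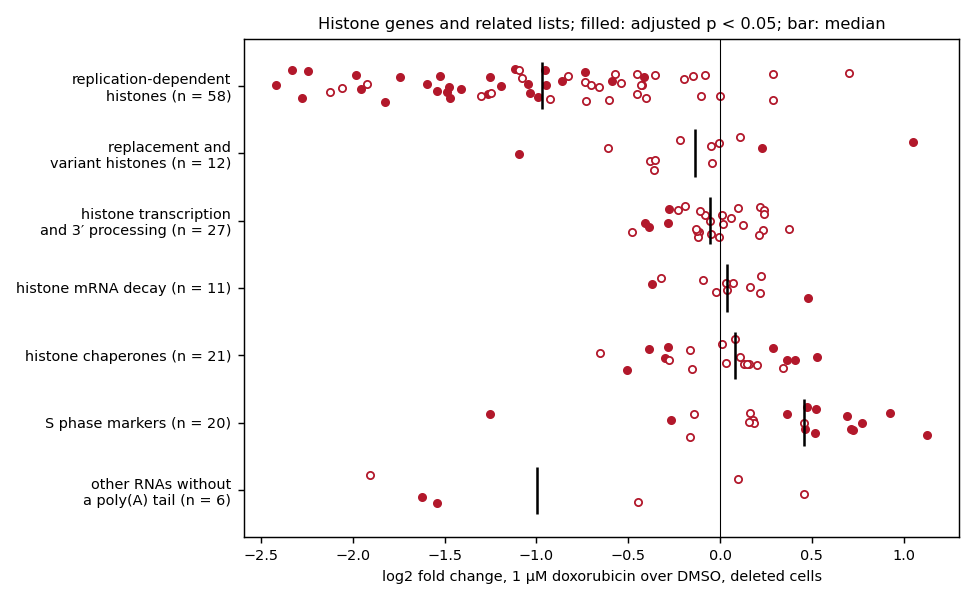
Log2 fold change for doxorubicin over DMSO in deleted cells (x axis) of the 58 histone genes and of 6 related lists; filled points passed an adjusted p under 0.05 by edgeR and the bar is the list median. The median is -0.97 for the histone genes and 0.46 for S phase markers.

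Other RNAs without a poly(A) tail were looked at beside the histone genes. Of 15 such RNAs 7 were at 0 counts in every library, and 6 were tested. With doxorubicin in deleted cells none of the 6 rose and 2 fell, SNORD3A (-1.54) and TERC (-1.62), with a median of -1.0. Of all genes tested, 17.5% rose and 13.1% fell. At an unadjusted p under 0.05 no list member was higher. Their summed level was 23.4, 10.4 and 10.4 CPM in deleted doxorubicin libraries against 21.7, 8.36 and 19.0 CPM in deleted DMSO libraries. In intact cells it was 16.6, 47.4 and 24.6 CPM in doxorubicin and 40.2, 35.4 and 31.9 CPM in DMSO. The sums overlapped between treatments in both genotypes. RN7SL1, the RNA of the signal recognition particle, averaged 10.9 CPM in deleted doxorubicin libraries and 10.2 CPM in deleted DMSO libraries. Within each of the 4 groups the libraries had the same order by this sum as by the histone sum, and its part in the histone values was not tested. The 2 libraries with the highest mitochondrial share had the lowest histone sum of their groups, 91.7 CPM in the deleted DMSO group and 116.6 CPM in the intact doxorubicin group. Without both, 33 histone genes fell with doxorubicin in deleted cells, 27 of them among the 29 of the main fit. The share of all genes that fell in this smaller fit is not given here.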

How the data were processed

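Gene-level read counts of 12 libraries, as the authors deposited them, were used without change. Per the submitters' processing notes, bcl2fastq, STAR 2.7.9a and featureCounts of Subread 2.0.1 were used with hg38, and per the labels' protocols the libraries were paired-end. No source used here gives the annotation release, the strand setting or the RNA selection. Groups follow the sample titles and treatments, 3 libraries each. Totals ran from 66150539 to 99142099 counts, which limits genes of few counts.

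edgeR 4.0.16 (R 4.3.3) with filterByExpr, TMM and the quasi-likelihood test was fitted to all 4 groups. The 5 contrasts, adjusted by Benjamini-Hochberg over 21803 genes, used a threshold of 0.05. The fit was tested on simulated counts. CPM used TMM effective library sizes. Alternatives comprised DESeq2 1.42.0, limma-voom (limma 3.58.1), other scalings and filters, a GC trend removed (loess span 0.5), a replicate block and 12 fits each without 1 library. Same-numbered libraries had deviations correlated at -0.22 to 0.12, so the numbers were not taken to pair them.

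The histone genes and the other lists were chosen with earlier results of these data known. Genes named with full values are the 10 of highest mean CPM and, in each contrast, the 4 largest and 4 smallest changes among those that passed; other genes were named after their values were seen. Stem-loops came from GENCODE 29 transcripts, and promoters and coordinates from RefSeq GRCh38.p14.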

Additional observations from a re-analysis of the deposited data

Results flagged for a closer look

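The doxorubicin effect differed between deleted cells (1 µM) and intact cells (170 nM) in 18 histone genes, by the interaction term of the edgeR fit at an adjusted p under 0.05, and dose and genotype cannot be told apart in it. The differences, deleted minus intact on the log2 scale, were as follows. Among H3 genes they were -3.03 for H3C6, -2.23 for H3C3, -1.89 for H3C8, -1.76 for H3C10, -1.71 for H3C1 and -1.67 for H3C12. Among H2A genes they were -2.49 for H2AC6, -1.41 for H2AC13 and -0.98 for H2AC14. Among H2B genes they were -1.83 for H2BC4, -1.72 for H2BC7, -1.64 for H2BC6, -1.60 for H2BC5, -1.55 for H2BC14, -1.51 for H2BC11, -1.30 for H2BC8, -1.28 for H2BC12 and -0.82 for H2BC21. The calls of H2AC14, H2BC7, H2BC8, H2BC14, H3C1 and H3C12 did not hold in each fit without 1 library, and those of H2AC14, H2BC14, H3C1 and H3C12 were lost with the replicate block.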

How the results depend on the processing

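For named genes, in the comparisons where they had passed in the main fit, the alternatives gave 1063 values. Of these, 982 kept their direction and stayed past the threshold, 81 kept their direction and did not pass, and 0 reversed. Only passed calls entered and the alternatives reuse the same libraries, so reversals were unlikely from the start. In deleted cells the count of genes lower after doxorubicin, 29, was 22 with only the groups compared, 23 among genes of at least 1 CPM, 37 with the GC trend removed, and 20 to 34 without 1 library, with 20 without deleted doxorubicin replicate 2 or deleted DMSO replicate 3. The 23 were all among the 29, and the 1 CPM filter leaves out histone genes of few counts. With the replicate block the count was 27. For the difference of the effects, 18, the block gave 14 and single omissions 12 to 20. In treated cells, 31, the block gave 30 and single omissions 25 to 36. In DMSO the 1 higher gene became 0 with RLE factors, library totals, no filter or without the 10 most abundant genes, and 0 to 1 without 1 library. The 5 lower became 8 with no filter and 4 with the block. The shares of all genes called in these alternatives are not given here, so their counts cannot be read against a background. The intact DMSO sum was 111 CPM over genes of at least 1 CPM in 3 libraries, a filter that leaves out histone genes of few counts. The cause of the other shifts was not tested. Low depth limits the genes under 1000 counts, and shared sequence those with near-identical copies.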

Other observations

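Rows for histone pseudogenes, which the naming rule leaves out, also fell with doxorubicin in deleted cells. Of 13 such identifiers 6 were tested by edgeR, and 5 were lower and 0 higher, where 13.1% of all genes tested were lower and 17.5% higher. H2BC20P was at 7.55, 6.86 and 7.29 CPM in deleted doxorubicin libraries against 10.2, 12.3 and 10.9 CPM in deleted DMSO libraries, a log2 fold change of -0.62. H2BC19P was at 4.22, 4.01 and 3.95 CPM in deleted doxorubicin libraries against 7.24, 8.38 and 7.87 CPM in deleted DMSO libraries, a log2 fold change of -0.95. H2AC5P held 3, 2 and 2 counts in deleted doxorubicin libraries against 29, 19 and 25 counts in deleted DMSO libraries. H2AC10P held 0, 1 and 2 counts in deleted doxorubicin libraries against 12, 5 and 25 counts in deleted DMSO libraries. None of these groups overlapped, where 20.7% of all genes tested had all doxorubicin libraries below all DMSO libraries. H2BC16P was at -1.20 and passed, and H3C9P at -0.88 did not pass. Pseudogenes can share reads with histone genes, so these values are uncertain. H2AC5P and H2AC10P had no deleted doxorubicin library above the floor of 3 counts. Both entered the fit through the other groups, which favours a low value in treated deleted cells.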
